A study of Mus musculus with 9 samples.

Results

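CCT/TRiC is the chaperonin of the eukaryotic cytosol, a barrel of 2 stacked rings in which each ring holds 1 copy of each of 8 related ATPase subunits. Newly made actin and tubulin, which hardly fold without it, enter the barrel and are released folded after cycles of ATP hydrolysis, and prefoldin hands such chains over to it. The 8 genes Tcp1, Cct2, Cct3, Cct4, Cct5, Cct6a, Cct7 and Cct8 encode the subunits alpha, beta, gamma, delta, epsilon, zeta, eta and theta. They were found by gene name, were present in 1 row each, and made up 8 of the 46072 genes in the deposited tables. Each passed every filter on low values.

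The data came from RNA sequencing of monocytes taken from the spleens of 9 female C57BL/6 mice aged 8 to 10 weeks, with 3 mice in each group and no stimulation in culture. The Con group was given water by gavage over 6 days. The Van group was given vancomycin in the same way, an antibiotic that stays largely in the intestine, with a daily dose of 2 mg for each mouse. The VanLip group had the same vancomycin. Its mice were also injected behind the eye with L654 on days 7, 9 and 11, at 2.5 or 5 µg per injection. L654 is a lipid of Bacteroidota bacteria recognized by the receptor TLR2, and was purified from Porphyromonas gingivalis. In all 3 groups the spleens were taken after 8 days without gavage, where the labels give 6 to 8 days. Monocytes were enriched by magnetic removal of other cells, and whether spleens were combined for the sequenced cells, as was done for cultured cells, was not stated. No group received L654 without vancomycin. The paper injected control mice with vehicle in its other L654 experiments, but does not state this for the sequenced Con and Van mice. If they had no injection, injection and L654 cannot be told apart.

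The libraries carried the monocyte genes the label calls for. The summed level of 12 monocyte markers, in FPKM (fragments counted per transcript length and per library size), was between 10540 and 12844 in every library. The 7 neutrophil markers summed to 1.94 to 12.2 FPKM per library, with Ly6g at 0 in each. Total counts were 43070361 to 61383806 for Con and Van, against 170503470 to 184720704 for VanLip, and the commonest low count was 1.33 in the former and 2 in the latter, as reads of 100 and 150 bases would give. The methods state paired-end reads of 100 bases for the libraries and name no second read size, so the read size of VanLip is inferred from these values alone. Read size, and whatever else set these libraries apart, therefore cannot be told apart from the VanLip treatment. For depth alone the VanLip fragments were thinned to the mean depth of the others, with the values given below. In RNA of bulk cells, fewer cells of a type and less RNA per cell cannot be told apart either.

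The genes lie on 8 chromosomes of GRCm38. Tcp1 (ENSMUSG00000068039) is at chr17:12915701-12925067 on the plus strand, Cct2 (ENSMUSG00000034024) at chr10:117051001-117063814 on the minus strand, and Cct3 (ENSMUSG00000001416) at chr3:88297116-88321767 on the plus strand. Cct4 (ENSMUSG00000007739) is at chr11:22990519-23003780 on the plus strand and Cct5 (ENSMUSG00000022234) at chr15:31590800-31601804 on the minus strand. Cct6a (ENSMUSG00000029447) is at chr5:129786998-129846371 on the plus strand, Cct7 (ENSMUSG00000030007) at chr6:85451514-85468475 on the plus strand, and Cct8 (ENSMUSG00000025613) at chr16:87483326-87495873 on the minus strand. The subunits thus share no genomic neighbourhood.

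Reads from other genes could enter some of these values. Exons of Tcp1 overlapped exons of Acat3 by 571 bases and of Mrpl18 by 141 bases, exons of Cct6a overlapped Psph by 452 bases, exons of Cct7 overlapped Pradc1 by 214 bases and exons of Cct8 overlapped Usp16 by 192 bases. All 5 neighbours lie on the opposite strand, and whether counting used strand was not stated, so reads in these stretches could be split either way. Acat2 shared 98.7% of 445 aligned bases with Tcp1, at a mean level equal to 5.87% of that of Tcp1. The other near copies of Tcp1, Cct3, Cct4 and Cct7 were pseudogenes, and those with a value in the tables were at 0.149 FPKM or under in every library. A Cct7 copy, AC116766.1, had no value in them.

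Promoter stretches of 3 subunits are shown as examples, chosen after the matches were seen. They hold the CCAAT box, a common proximal promoter element, or 2 units of the heat shock element, the site of HSF1. Windows of Tcp1 and Cct6a also held a CCAAT match, and windows of Cct2 and Cct6a 2 such units, and are not printed. The printed stretches run from 220 to 21 bases before the start of the gene in RefSeq (GRCm38.p6). They are written 5' to 3' on the strand of the gene, with matches in capitals. Cct3 is chr3:88296915-88297114 (plus strand) and Cct7 is chr6:85451285-85451484 (plus strand), both with the CCAAT box in its reverse complement. Cct5 is chr15:31601867-31602066 (minus strand), with 2 units of the heat shock element.
Cct3: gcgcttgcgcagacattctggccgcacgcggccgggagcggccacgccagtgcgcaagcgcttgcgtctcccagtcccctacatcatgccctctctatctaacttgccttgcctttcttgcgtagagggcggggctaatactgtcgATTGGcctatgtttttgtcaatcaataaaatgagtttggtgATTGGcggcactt
Cct7: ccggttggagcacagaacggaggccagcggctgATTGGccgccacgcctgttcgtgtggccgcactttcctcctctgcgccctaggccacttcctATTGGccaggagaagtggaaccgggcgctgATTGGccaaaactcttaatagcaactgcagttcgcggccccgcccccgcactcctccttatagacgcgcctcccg
Cct5: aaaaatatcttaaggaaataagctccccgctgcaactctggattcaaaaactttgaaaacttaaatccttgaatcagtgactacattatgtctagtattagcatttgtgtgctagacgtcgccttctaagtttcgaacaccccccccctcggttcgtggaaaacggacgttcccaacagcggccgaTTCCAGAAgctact

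The motifs were searched on both strands in windows from 250 bases before to 50 bases after each start. RefSeq windows were matched by gene name for 7 of the 8 subunits, with none found for Cct4, and gave 9 windows. CCAAT (or ATTGG on the other strand) was present in Tcp1, Cct3, Cct6a and Cct7, and in 37.4% of all 32851 windows. TTCNNGAA, which is its own reverse complement, was present in 1 window each of Cct5 and Cct6a, and in 8.52% of all windows. Cct5 has another window without it, and the match of Cct6a lies after the start. GAANNTTC, likewise its own reverse complement, was present in 1 window of Cct2 and in 7.86% of all windows. The longer heat shock element of 3 alternating units, which contains both shorter forms, was in 0 of 9 windows and in 0.603% of all windows, and the E-box CACGTG was in 0 of 9 and in 7.15%. These matches describe letters in the windows, were chosen after values were seen and were given no test.

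All 8 subunits were strongly expressed. In Con, their mean levels ranged from 24.3 ± 1.02 FPKM for Cct3 to 79.3 ± 0.739 FPKM for Cct2 (SD, n = 3), which placed them between the 89.4 and 97.1 percentiles of the 26108 genes detected. From high to low the order of mean FPKM was Cct2, Cct5, Cct4, Cct8, Tcp1, Cct7, Cct6a and Cct3, and it was the same in Con, Van and VanLip. Most neighbours in this order were separated in every library. The ranges of Cct8 and Tcp1 overlapped in Con, those of Cct2 and Cct5 and of Cct7 and Cct6a overlapped in Van, and none overlapped in VanLip.

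**Figure D1:**
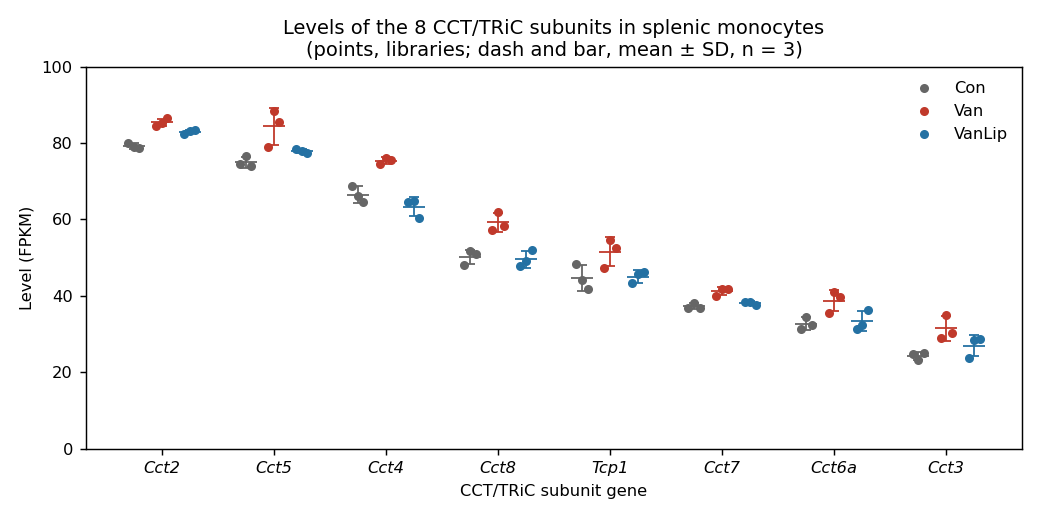
Levels of the 8 CCT/TRiC subunit genes in FPKM (vertical axis) in the Con, Van and VanLip libraries, with points for libraries and a dash and bar for mean ± SD (n = 3). The order from Cct2 to Cct3 was the same in all 3 groups, and the Van points lie highest for most subunits.

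The subunits were not equal in mRNA although the complex holds them in equal number. In Con, the highest subunit, Cct2, was 3.26 ± 0.138 times the lowest, Cct3 (SD, n = 3). The ratio of the highest to the lowest was 2.76 ± 0.210 in Van and 3.10 ± 0.321 in VanLip. In Van replicate 2 the highest was Cct5, at 88.5 FPKM against 85.3 for Cct2. As a share of the summed FPKM of the 8 subunits, Cct3 made up 5.93% ± 0.308 of the Con total, 6.73% ± 0.444 of the Van total and 6.46% ± 0.574 of the VanLip total (SD, n = 3 each). The share of Cct2 was 19.3% ± 0.199 in Con, 18.3% ± 0.657 in Van and 19.9% ± 0.193 in VanLip. The 3 Van values of the Cct3 share, 6.46% to 7.24%, lay above the 3 Con values, 5.59% to 6.20%. The summed FPKM itself was 403.9 to 413.7 in Con, 447.3 to 484.8 in Van and 410.2 to 422.6 in VanLip, so that each Van library lay above each library of the other groups.

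The first comparison asked how splenic monocytes differed after vancomycin. All 8 subunits were higher in Van than in Con, by 6.87% for Cct2 to 29.7% for Cct3 in normalized counts, which are expected counts divided by the size factor of the library. Cct3, Cct4 and Cct8 passed the test, the DESeq2 Wald test over all genes with a Benjamini-Hochberg adjusted p of 0.05 or under, so that 3 of 8 were called higher and 0 lower. Of all genes tested 2.27% were called higher and 2.06% lower, and 4.13% were called higher among those averaging 1000 or more normalized counts, which each subunit exceeded. The edgeR quasi-likelihood test called 1 of 8 higher, against 0.765% of genes. The 3 Van libraries lay above the 3 Con libraries for 8 of 8 subunits, against 12.7% of genes that averaged 50 or more.

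Cct3, the gamma subunit, had normalized counts of 4927, 5063 and 4719 in Con and 6321, 6629 and 6138 in Van. Its Van libraries were well clear of its Con libraries. The log2 fold change of Cct3 was 0.38 ± 0.08 (SE, adjusted p = 0.000546 by DESeq2), the largest among the subunits, and its adjusted p was 0.0429 by edgeR.

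Cct4, the delta subunit, had normalized counts of 13861, 13479.8 and 13599 in Con and 15756, 15842 and 16166 in Van. The libraries of each group lay close together and did not overlap. Its log2 fold change was 0.22 ± 0.05 (SE, adjusted p = 0.000414 by DESeq2), and edgeR gave an adjusted p of 0.0571.

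Cct8, the theta subunit, had normalized counts of 9975, 10507 and 10290.5 in Con and 11596, 11933.5 and 12040.2 in Van. The gap between the groups was again wider than the spread within either. For Cct8 the log2 fold change was 0.21 ± 0.06 (SE, adjusted p = 0.0138 by DESeq2). This call did not hold without any 1 of the 6 Con and Van libraries, where adjusted p lay between 0.0504 (without Van replicate 1) and 0.146 (without Van replicate 2), nor with edgeR (adjusted p = 0.103).

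The other 5 subunits did not pass over all genes. Cct6a, the zeta subunit, had normalized counts of 5505, 6228 and 5588 in Con and 6423.5, 7238 and 6990.3 in Van, with a log2 fold change of 0.25 ± 0.09 (SE, adjusted p = 0.0822 by DESeq2). Its change was second in size to that of Cct3, with the largest SE of the 8. Leaving out VanLip replicate 1 or 3, which are not part of this comparison but of the same fit, gave Cct6a adjusted p of 0.0483 and 0.0446.

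Cct5, the epsilon subunit, had normalized counts of 13216, 13772 and 12978 in Con and 14216, 15417 and 15212 in Van, with a log2 fold change of 0.17 ± 0.06 (SE, adjusted p = 0.0800 by DESeq2). Tcp1, the alpha subunit and the first of the family to be named, had 10094, 9809 and 9036 in Con and 10653, 10788 and 10936 in Van, with a log2 fold change of 0.16 ± 0.06 (SE, adjusted p = 0.116 by DESeq2). In FPKM, Tcp1 was the 1 subunit whose Con and Van libraries overlapped, at 41.7 to 48.5 against 47.3 to 54.7, while 7 of 8 were higher without overlap (13.5% of genes with a mean FPKM of at least 1). Cct7, the eta subunit, had normalized counts of 8755, 9029 and 8516 in Con and 9427, 9599 and 9785 in Van, with a log2 fold change of 0.13 ± 0.05 (SE, adjusted p = 0.167 by DESeq2). Cct2, the beta subunit and the most abundant, had 15201, 14942 and 14563 in Con and 15945, 15624 and 16211 in Van, with a log2 fold change of 0.10 ± 0.05 (SE, adjusted p = 0.310 by DESeq2). By normalized counts each of the 4 was higher in every Van library than in any Con library, and none passed over all genes.

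At an unadjusted p under 0.05, 8 of 8 subunits passed with DESeq2 and 7 of 8 with edgeR, against 11.1% of the 25420 genes given a p-value by DESeq2 and 14.7% by edgeR. The median log2 fold change of the 8 was 0.19, against -0.01 over all genes tested.

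**Figure D2:**
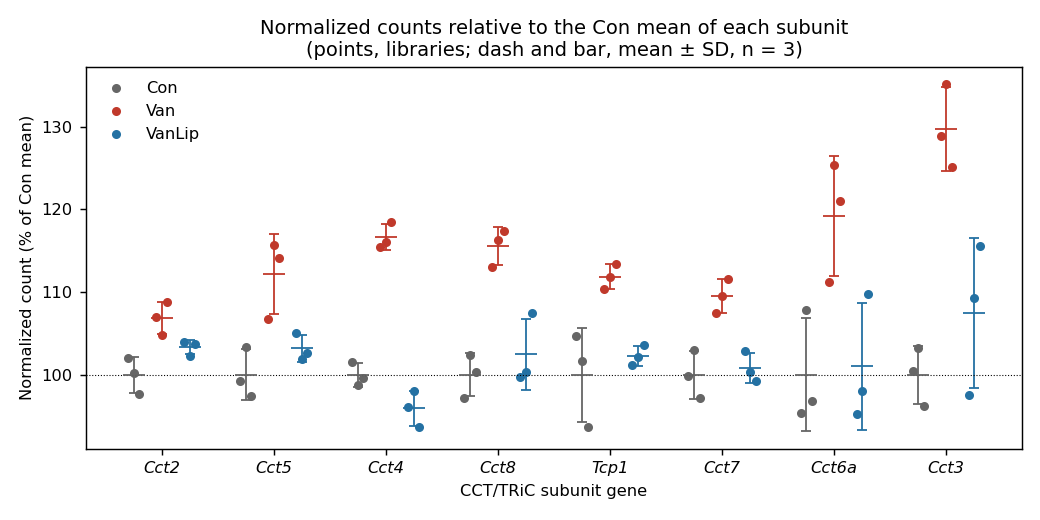
Normalized counts of each subunit as a percent of its Con mean (vertical axis, not starting at 0) in Con, Van and VanLip, with points for libraries and a dash and bar for mean ± SD (n = 3). Van libraries lie above Con libraries for all 8 subunits, from 6.87% on average for Cct2 to 29.7% for Cct3, and VanLip libraries lie on both sides of the Con mean, from 93.7% for Cct4 to 115.6% for Cct3.

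The second comparison asked how monocytes of mice given vancomycin and L654 differed from those of mice given vancomycin alone. All 8 subunits were lower in VanLip than in Van, with a difference of -3.30% for Cct2 to -17.8% for Cct4. Cct3, Cct4 and Cct8 passed the DESeq2 test, so that 3 of 8 were called lower and 0 higher. Of all genes tested 4.93% were called lower and 4.26% higher, and 8.07% were called lower among those averaging 1000 or more. With edgeR 1 of 8 was called lower, against 2.7% of genes. The 3 VanLip libraries lay below the 3 Van libraries for 8 of 8 subunits, against 14.4% of genes. In FPKM this held for 7 of 8, against 14% of genes with a mean FPKM of at least 1, and Cct6a overlapped, at 31.5 to 36.4 in VanLip and 35.7 to 41.0 in Van. With VanLip thinned to the depth of the other libraries, DESeq2 again called Cct4, Cct3 and Cct8 lower, at log2 fold changes of -0.29, -0.29 and -0.19. The Van libraries are those of the first comparison, so the 2 sets of values are not independent.

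Cct4 had normalized counts of 13117, 13371 and 12786 in VanLip, below the Van values of 15756 to 16166. These were also below each of its Con libraries. The log2 fold change of Cct4 for VanLip against Van was -0.28 ± 0.05 (SE, adjusted p = 2.75e-07 by DESeq2), and edgeR gave an adjusted p of 0.0108. This call held without any 1 of the 9 libraries.

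Cct3 had normalized counts of 4785, 5356 and 5666 in VanLip, below the Van values of 6138 to 6629. The VanLip libraries of Cct3 were spread, with replicate 1 inside the Con range and the others above it. For Cct3 the log2 fold change was -0.27 ± 0.08 (SE, adjusted p = 0.0146 by DESeq2), with an adjusted p of 0.0652 by edgeR. The call was lost without Van replicate 1 (adjusted p = 0.0688 by DESeq2), Van replicate 2 (0.130) or VanLip replicate 1 (0.0700).

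Cct8 had normalized counts of 10225, 10295 and 11018 in VanLip, below the Van values of 11596 to 12040.2. VanLip replicates 1 and 2 lay within its Con range and replicate 3 above it. Cct8 had a log2 fold change of -0.17 ± 0.06 (SE, adjusted p = 0.0337 by DESeq2), with an adjusted p of 0.106 by edgeR. Of the 9 fits without 1 library this call held only without VanLip replicate 3 (adjusted p = 0.0116 by DESeq2), and in the other 8 adjusted p lay between 0.0553 (without Con replicate 1) and 0.181 (without Van replicate 2).

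Among the subunits that did not pass, Cct6a had VanLip normalized counts of 5496, 5661 and 6338, with a log2 fold change of -0.24 ± 0.09 (SE, adjusted p = 0.0668 by DESeq2). Without VanLip replicate 3, its highest VanLip library, the adjusted p of Cct6a was 0.0128. Tcp1 had VanLip normalized counts of 9761, 9853 and 9995, Cct5 had 13988, 13578 and 13675, Cct7 had 9020.1, 8791 and 8704, and Cct2 had 15496, 15248.5 and 15459. Their log2 fold changes were -0.13 ± 0.06 for Tcp1, -0.12 ± 0.06 for Cct5, -0.12 ± 0.05 for Cct7 and -0.05 ± 0.05 for Cct2 (SE). The interval of Cct2 was the 1 of the 8 that included 0, at -0.14 to 0.04 (95% interval). At an unadjusted p under 0.05, 7 of 8 subunits passed with DESeq2 and 6 of 8 with edgeR, against 15.5% of genes with DESeq2 and 21% with edgeR.

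The third comparison set VanLip beside Con, the mice that had neither agent. With DESeq2, 0 of 8 subunits were called, where 2.77% of all genes tested were called higher and 3.46% lower, and 0 of 8 passed at an unadjusted p under 0.05 with DESeq2 (13% of genes) or with edgeR (17.8% of genes). The log2 fold changes ran from -0.06 ± 0.05 for Cct4 to 0.10 ± 0.08 for Cct3 (SE). The 95% intervals of the 8 together reached from -0.16, the lower bound of Cct6a, to 0.26, the upper bound of Cct3, while that of Cct4 was narrower, at -0.15 to 0.03. All 8 intervals included 0. The other fitted log2 fold changes were 0.05 for Cct2, 0.05 for Cct5, 0.04 for Cct8, 0.03 for Tcp1, 0.01 for Cct6a and 0.01 for Cct7. In normalized counts the groups did not overlap for Cct2, higher in VanLip (13.1% of genes), and Cct4, lower in VanLip (11.3% of genes). In FPKM, Cct2 and Cct5 were higher in every VanLip library (15.5% of genes), 0 were lower in every one (10.3% of genes) and Cct4 overlapped.

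**Figure D3:**
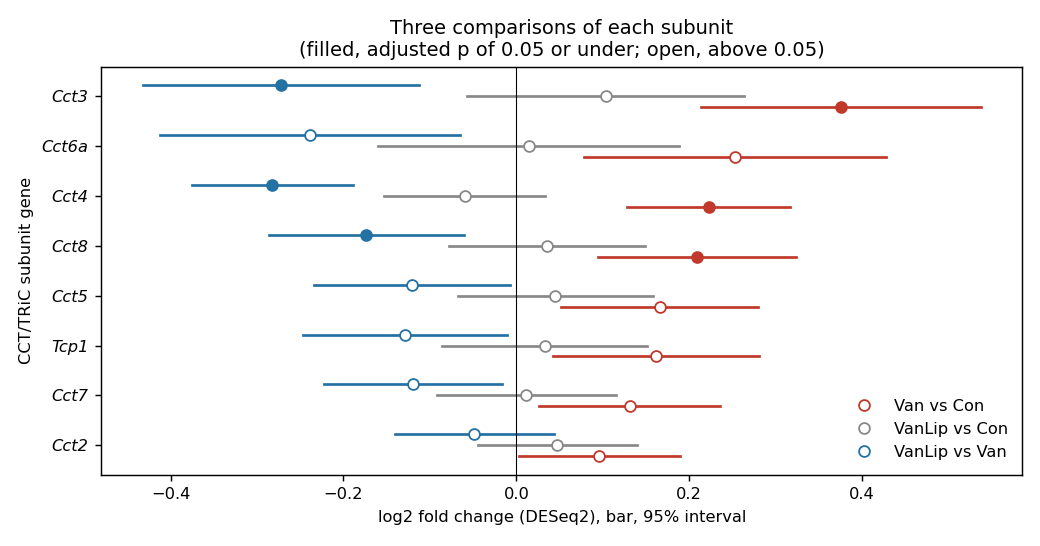
Fitted log2 fold changes of each subunit (horizontal axis) with 95% intervals in the 3 comparisons, filled where the DESeq2 adjusted p was 0.05 or under. The estimates for Van against Con lie to the right of 0 and those for VanLip against Van to the left for all 8, while the intervals of VanLip against Con all include 0.

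Markers of other cells moved with some of these comparisons, where DESeq2 called 2.27% of all genes higher and 2.06% lower in Van against Con, 2.77% and 3.46% in VanLip against Con, and 4.26% and 4.93% in VanLip against Van. The summed FPKM of 6 erythroid markers was 99.6 to 202 in Con, 343 to 772 in Van and 278 to 1162 in VanLip, with 5 of 6 called higher in Van and 6 of 6 in VanLip against Con by DESeq2, and 0 of 6 called, or at an unadjusted p under 0.05, between VanLip and Van. By edgeR these erythroid calls were 0 of 6 for Van (0.765% of genes called higher) and 5 of 6 for VanLip against Con (0.895%), with 6 of 6 at an unadjusted p under 0.05 in each. The 5 red pulp macrophage markers summed to 692 to 833 FPKM in Con, 778 to 1092 in Van and 730 to 846 in VanLip, with 1 of 5 called higher in Van than in Con (0 by edgeR) and 1 of 5 lower in VanLip than in Van (1 by edgeR). Among 6 dendritic cell markers, DESeq2 called 3 lower in Van against Con, 2 lower in VanLip against Con and 2 higher in VanLip against Van, at sums of 25.1 to 47.9 FPKM over all libraries. By edgeR the dendritic cell calls numbered 1, 0 and 0, where the shares of all genes called in the same directions were 0.445%, 0.883% and 2.37%. Among the 12 monocyte markers 1 was called lower in Van than in Con (0 by edgeR), 0 in VanLip against Con by either tool, and 3 higher in VanLip than in Van (2 by edgeR). Of 6 B cell markers 1 was called lower in Van and 1 in VanLip against Con (1 and 0 by edgeR), and their sum was 335 to 393 FPKM in Con, 251 to 276 in Van and 257 to 320 in VanLip. Their part in the subunit values was not tested. The 13 cell cycle genes, which rise in dividing cells, summed to 97.4 to 107 FPKM in Con, 98.5 to 123 in Van and 89.3 to 120 in VanLip, and 0 of 13 were called in any comparison, or had an unadjusted p under 0.05, by DESeq2 or edgeR.

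Within groups, the correlations between subunits ran from negative to positive. Deviations of log2 normalized counts from the group mean were correlated for the 28 pairs of subunits over the 9 libraries. Pearson's r ran from -0.61 for Cct4 and Cct8 to 0.91 for Cct6a and Cct8, with a median of 0.22 and 21 of 28 above 0. The libraries share depth and composition across all genes, which enters each r. Other pairs of genes were not correlated, so these values have no baseline.

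For Cct6a and Cct8, r was 0.91 (two-sided exact permutation p = 0.0139 within groups, 0.389 after Benjamini-Hochberg adjustment over the 28 pairs). Spearman's rho was 0.90 (exact permutation p = 0.00926, adjusted 0.259). Without the 2 libraries farthest from the median of Cct6a, r was 0.80. For Cct5 and Cct7, r was 0.80 (exact permutation p = 0.0370, adjusted 0.519) and rho was 0.87 (exact permutation p = 0.0185, adjusted 0.259), with r of 0.75 without 2 libraries. Over the 28 pairs, 0 passed the adjustment by either measure, but the smallest p that the design allows becomes 0.259 for a single pair after adjustment, so that no pair could have passed alone and these r are a description. Cct4 went against Cct3, Cct6a and Cct8, at r of -0.40, -0.51 and -0.61, which became -0.20, -0.25 and -0.24 without 2 libraries.

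**Figure D4:**
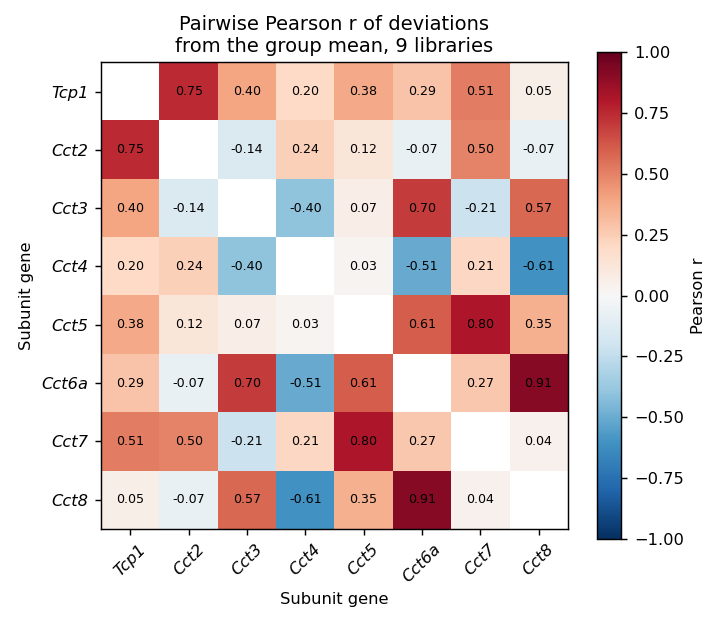
Pearson's r (colour and number) between the deviations from the group mean of each pair of subunits over 9 libraries. The highest value is 0.91 for Cct6a and Cct8 and the lowest is -0.61 for Cct4 and Cct8.

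Across the groups, the genes whose pattern was most like the subunits were ranked by Pearson's r over the 9 libraries with the mean standardized level of the 8. Among 12208 genes that averaged 100 or more normalized counts, the closest were Dhx9, an RNA helicase (r = 0.99), Paip1, which binds the poly(A)-binding protein (0.97), Otud5, a deubiquitinase (0.97), Ccp110, a centriole protein (0.96), and Bpnt1, a nucleotidase (0.96). Dhx9 had mean normalized counts of 14515 in Con, 18159 in Van and 15085 in VanLip. An r of at least 0.9 was found for 73 genes, or 0.598% of those compared. These r describe a shape set mostly by the high Van libraries and carry no test.

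Other chaperones were set beside the subunits. Among 23 cytosolic heat shock chaperones, cochaperones and their factors, 12 were called higher and 0 lower after vancomycin (Van against Con), at a median log2 fold change of 0.48, where 2.27% of all genes were called higher. In VanLip against Van 15 were called lower and 0 higher, with a median of -0.63, where 4.93% of all genes were called lower. By edgeR 11 were called higher (0.765% of genes) and 15 lower (2.7%) in these comparisons. The subunit medians in the same comparisons were 0.19 and -0.15, and those of all genes tested -0.01 and 0.01. Whether the lists differ in size of change was not tested. In VanLip against Con, 0 of the 23 were called higher and 3 lower by each tool, where 3.46% of genes were called lower by DESeq2 and 0.883% by edgeR.

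Dnaja1, a cochaperone of HSP70, had normalized counts of 12047, 11470.5 and 12174 in Con, 18443, 19091 and 19440.1 in Van and 9026, 8706 and 8590.5 in VanLip. Its Van libraries were high and its VanLip libraries lay below Con as well. The log2 fold change of Dnaja1 was 0.67 ± 0.06 for Van against Con (SE, adjusted p = 4.95e-30 by DESeq2) and -1.11 ± 0.06 for VanLip against Van (SE, adjusted p = 6.71e-87).

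Hsph1, a nucleotide exchange factor of HSP70, had normalized counts of 3199, 2801 and 2819 in Con, 9427, 10192 and 10139.6 in Van and 1573, 2474.5 and 2459 in VanLip. The 3 groups did not overlap. Hsph1 had a log2 fold change of 1.75 ± 0.15 for Van against Con (SE, adjusted p = 1.76e-26 by DESeq2) and -2.19 ± 0.15 for VanLip against Van (SE, adjusted p = 2.43e-43). Hspa8, the constitutive HSP70, gave log2 fold changes of 0.60 ± 0.07 and -0.76 ± 0.07 in the same comparisons, and Hsp90aa1, the inducible cytosolic HSP90, gave 0.63 ± 0.08 and -0.86 ± 0.08 (SE), each past the test.

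The mitochondrial chaperonin, which folds proteins in the matrix with a different kind of ring, was represented by Hspd1 and Hspe1. Both were called higher in Van than in Con by DESeq2 (2.27% of genes) and lower in VanLip than in Van (4.93% of genes). By edgeR 1 of 2 was called in each (0.765% and 2.7% of genes). Hspd1, the ring subunit, had normalized counts of 6236.5, 6095 and 6874 in Con, 8273, 8803 and 8872.5 in Van and 5753, 6072 and 7183 in VanLip. Hspd1 had a log2 fold change of 0.43 ± 0.10 for Van against Con (SE, adjusted p = 0.000792 by DESeq2) and -0.45 ± 0.10 for VanLip against Van (SE, adjusted p = 0.000168). Hspe1, the lid, gave 0.31 ± 0.10 (SE, adjusted p = 0.0458 by DESeq2) and -0.31 ± 0.10 (SE, adjusted p = 0.0252).

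Genes that work directly with CCT/TRiC were counted in the same way, against 2.27% of all genes called higher and 2.06% lower in Van against Con, shares at which a short list gives few calls or none. In VanLip, 2.77% of genes were called higher and 3.46% lower against Con, and 4.26% and 4.93% against Van. At an unadjusted p under 0.05, the shares over all genes were 11.1% by DESeq2 and 14.7% by edgeR in Van against Con, 13% and 17.8% in VanLip against Con, and 15.5% and 21% in VanLip against Van. Of 13 prefoldin subunits and CCT cofactors, 12 had an adjusted p, and 0 were called in Van against Con by DESeq2 or edgeR, and 0 at an unadjusted p under 0.05, at a median log2 fold change of -0.00. Pfdn6, a prefoldin subunit, had normalized counts of 1473, 1632 and 1529 in Con, 1574, 1688 and 1579 in Van and 1873, 2015 and 1843 in VanLip. It was the 1 gene of the list called, higher in VanLip than in Con (0.31 ± 0.08, adjusted p = 0.00985 by DESeq2) and than in Van (0.24 ± 0.08, adjusted p = 0.0432), and edgeR called 0 of the list in either comparison. In each of these 2 comparisons 2 of the list had an unadjusted p under 0.05 by each tool. Of 5 chaperonin-like genes (Cct6b, Cct8l1, Mkks, Bbs10 and Bbs12), 0 were called in any comparison by DESeq2 (4 with an adjusted p) or edgeR (3 tested), and 1 had an unadjusted p under 0.05, in VanLip against Van by each tool.

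Of 26 clients of CCT/TRiC, among them actins, tubulins, G protein beta subunits and WD-repeat proteins, 0 were called in Van against Con by DESeq2 or edgeR, where 2 and 4 had an unadjusted p under 0.05, and the median log2 fold change was 0.07. Stat3, a transcription factor, had normalized counts of 38816.5, 37399 and 37669 in Con, 43177, 37357 and 39573 in Van and 30629, 31863 and 29979 in VanLip. Each VanLip library of Stat3 lay below those of Con and Van, with log2 fold changes of -0.30 ± 0.07 against Con (SE, adjusted p = 0.000689 by DESeq2) and -0.38 ± 0.07 against Van (SE, adjusted p = 2.52e-06). Gnb2, a G protein beta subunit, was higher in VanLip than in Con (0.23 ± 0.07, adjusted p = 0.0167 by DESeq2). Tuba8, a tubulin, was called lower in VanLip in both comparisons from very low normalized counts of 24.7, 20.0 and 7.4 in Con, 9.2, 0 and 19.8 in Van and 0 in each VanLip library. By edgeR the call of Stat3 held in both comparisons (adjusted p = 0.0463 and 0.00893), and those of Gnb2 (0.0894) and Tuba8 (0.0662 and 0.0600) did not. At an unadjusted p under 0.05, 4 of the 26 passed in VanLip against Con by each tool, and 6 by DESeq2 and 5 by edgeR in VanLip against Van, where the shares over all genes were those given above.

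**Figure D5:**
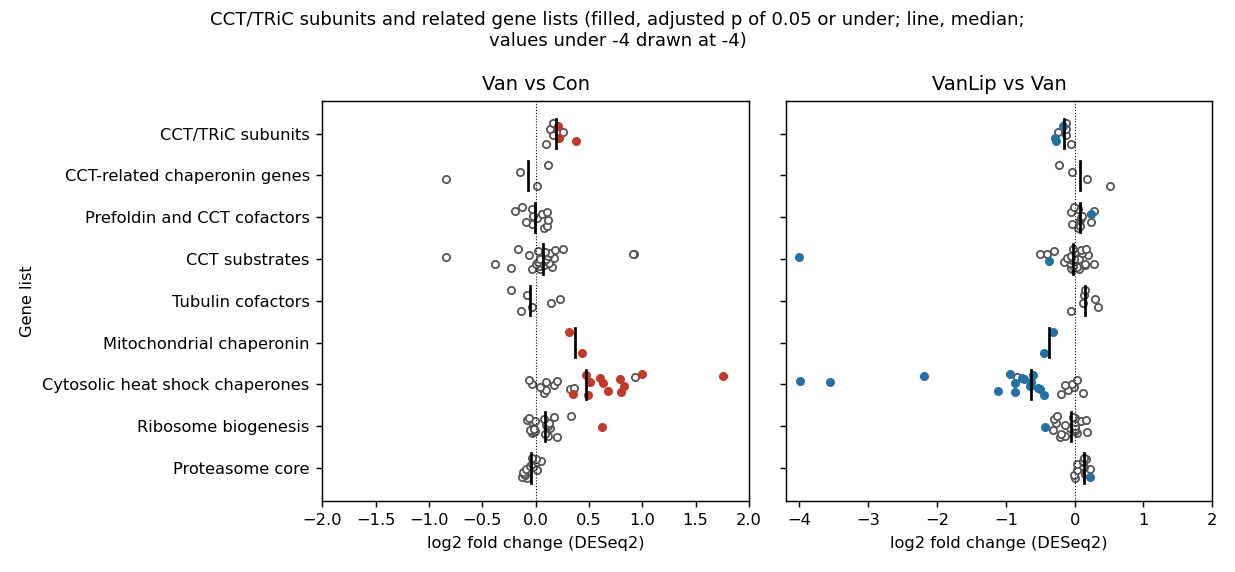
Log2 fold changes of single genes (points, filled where the DESeq2 adjusted p was 0.05 or under) by list in Van against Con (left) and VanLip against Van (right), with a line at each median and values under -4 drawn at -4. The CCT/TRiC subunits lie on the side of the heat shock chaperones in both comparisons, with medians of 0.19 and -0.15 against 0.48 and -0.63.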

How the data were processed

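Splenic monocytes of 9 mice, 3 per group by the sample titles, were sequenced with a stranded TruSeq mRNA kit. Per the labels and methods, the authors aligned reads to GRCm38 with HISAT2 2.2.1, sorted them with SAMtools 1.9 and deposited FPKM values per gene from StringTie 2.1.3. Expected counts per gene, made by tximport, were deposited as well, and the authors tested them with DESeq2 1.38.3; the annotation release was not given in the sources used here. Totals were 43070361 to 61383806 counts per library in Con and Van and 170503470 to 184720704 in VanLip. The commonest low count was 1.33 and 2, as reads of 100 and 150 bases give where tximport assumes 75 bases; the methods state 100 bases.

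The expected counts were rounded and tested in R 4.3.3 with the DESeq2 1.42.0 Wald test, all 9 libraries in 1 fit, group as the only term, default independent filtering, Benjamini-Hochberg adjustment and a call at 0.05 or under. Tests were two-sided. Levels between genes were compared in FPKM. Positions came from GENCODE M21, promoters from RefSeq (GRCm38.p6), and near copies from blastn 2.17.0 at 85% identity or more over at least 200 bases. The scripts were tested on simulated data: at changes of about the size seen in the subunits, DESeq2 recovered few of the changed genes and most of its calls were of unchanged genes, and edgeR made no call. At a larger change, a doubling or halving, both recovered most of the changed genes, and unchanged genes were a minority of the calls, larger with DESeq2 than with edgeR. With 3 mice a group, p-values measure the spread between these libraries. Alternatives were edgeR 4.0.16, TMM sizes, filters, 2-group fits, a replicate block, limma 3.58.1 on quantile-normalized log2 FPKM with a pseudocount of 1 or 0.1, rescaled and thinned counts, protein-coding genes alone, and leaving out each library. Named genes were the 8 subunits, up to 4 called members per list by lowest adjusted p, and the 5 genes most like the subunits. The members and lists were chosen with earlier results of these data known.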

Additional observations from a re-analysis of the deposited data

How the results depend on the processing

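Each comparison was repeated under 12 other settings and 9 fits without 1 library. No subunit changed direction for Van against Con or VanLip against Van in any of these 21. Of the 8 subunits, the number called higher in Van than in Con was 3, where 803 of 18516 genes were called in either direction. It was 1 with edgeR (Cct3), where 204 of 16867 genes were called, and 4 with only the 2 groups compared (951 of 12548). With limma it was 0 on log2(FPKM + 1) (92 of 26108 genes called), 0 on log2(FPKM + 0.1) (17 of 26108) and 0 at a mean FPKM of at least 1 (90 of 11710). Without 1 library it was 2 to 4, where 406 to 923 genes were called. The number called lower in VanLip than in Van was 3, where 1748 of 19009 genes were called in either direction. It was 1 with edgeR (Cct4), where 855 of 16867 genes were called, and 4 with only protein-coding genes (1315 of 11359). It was 2 with TMM library sizes and 2 with only the 2 groups compared. With limma it was 1 on log2(FPKM + 1) (688 of 26108 genes called), 0 on log2(FPKM + 0.1) (516 of 26108) and 1 at a mean FPKM of at least 1 (829 of 11710). Without 1 library it was 1 to 4, where 1124 to 1651 genes were called. The libraries whose absence left 1 were Van replicates 1 and 2 and VanLip replicate 1. Cct3 was called for Van against Con in 18 of 21 settings, Cct4 in 17 and Cct8 in 10; for VanLip against Van, Cct4 was called in 20, Cct3 in 14 and Cct8 in 6. The cause of these losses was not tested.

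For VanLip against Con, 0 of 8 subunits were called in all 21 settings, where 168 to 1276 genes were called. The small fitted differences of 4 subunits changed sign. On the log2 scale Limma with a pseudocount of 1, with or without the limit on mean FPKM, gave -0.0546 for Tcp1, -0.0101 for Cct6a, -0.0200 for Cct7 and -0.0696 for Cct8, and with a pseudocount of 0.1 these were -0.0557, -0.0104, -0.0204 and -0.0709. With only protein-coding genes Cct7 was -0.000248. Without 1 library, Tcp1 ran from -0.0111 (no Con replicate 3) to 0.0666, Cct6a from -0.0504 (no VanLip replicate 3) to 0.0735, Cct7 from -0.0081 (no Con replicate 3) to 0.0343 and Cct8 from -9.02e-05 (no VanLip replicate 3) to 0.0545. The replicate numbers share only a name, since deviations of same-numbered libraries correlated at -0.06 to 0.12 over 9 pairs and 13503 genes. With the replicate number as a block, the calls numbered 2 of 8 in Van against Con, 0 of 8 in VanLip against Con and 2 of 8 in VanLip against Van. Over all genes that fit called 932, 1157 and 1630. Each subunit had a normalized count of at least 1000 in every library. Thinning VanLip to the depth of the other libraries gave 3, 0 and 3 calls of 8 in the same comparisons. Over all genes the thinned fit called 694, 951 and 1545. The read size inferred from the low counts coincides with VanLip and was not separable by any fit.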

Other observations

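Further gene groups were counted in the same fits. Of all genes DESeq2 called 2.27% higher and 2.06% lower in Van against Con, shares at which a short list gives few calls or none. In VanLip these were 2.77% and 3.46% against Con, and 4.26% and 4.93% against Van. By edgeR the shares were 0.765% and 0.445%, 0.895% and 0.883%, and 2.37% and 2.7% in the same order. At an unadjusted p under 0.05, the shares over all genes were 11.1% by DESeq2 and 14.7% by edgeR in Van against Con, 13% and 17.8% in VanLip against Con, and 15.5% and 21% in VanLip against Van. Among 20 ribosome biogenesis genes, 1 was called higher in Van than in Con and 1 lower in VanLip than in Van by DESeq2, in both cases Nop16, a nucleolar protein. Nop16 had normalized counts of 892.5, 1111 and 967 in Con, 1597, 1522 and 1448.5 in Van and 1068, 1097 and 1228 in VanLip, with log2 fold changes of 0.62 ± 0.12 (SE, adjusted p = 2.14e-05 by DESeq2) and -0.43 ± 0.11 (SE, adjusted p = 0.00332). Nop16 was also the 1 gene of the 20 that edgeR called in each of these comparisons (adjusted p = 0.0294 and 0.0400), and at an unadjusted p under 0.05 DESeq2 gave 3 in Van against Con, 1 in VanLip against Con and 6 in VanLip against Van, and edgeR 4, 2 and 6. The r of Nop16 with the mean subunit pattern was 0.92. Among 14 subunits of the proteasome core, 0 were called in Van against Con, or had an unadjusted p under 0.05, by DESeq2 or edgeR, and Psma2 was the 1 called higher in VanLip than in Van (0.23 ± 0.07 on the log2 scale, adjusted p = 0.0109 by DESeq2), where edgeR called 0. In that comparison 13 of the 14 had a log2 fold change above 0, at a median of 0.13. Of all genes tested, 52.1% were above 0, at a median of 0.01. Of the 14, 6 had an unadjusted p under 0.05 by DESeq2 and 7 by edgeR. In VanLip against Con 2 of the 14 had one by each tool and 0 were called. Among 6 tubulin cofactors, which act on tubulin after CCT/TRiC, 0 were called in any comparison by DESeq2 or edgeR, and by each tool 1 had an unadjusted p under 0.05 in Van against Con, 3 in VanLip against Con and 1 in VanLip against Van.

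Of 22 heat shock chaperones compared with the subunit pattern over the 9 libraries, 11 had an r of at least 0.8, against 3.01% of all 12208 genes, and 3 had an r of at least 0.9. These were Chordc1 (0.95), Stip1 (0.94) and Fkbp4 (0.91), named after their values were seen. The r carry no test, and the high Van libraries weigh in each. Hspa1a and Hspa1b, the inducible HSP70 genes, were also singled out after their values were seen. Hspa1a had normalized counts of 13881, 7125 and 21063.5 in Con, 14375, 15173 and 15541 in Van and 787, 1767 and 1270 in VanLip. Its Con libraries were the most scattered, and its VanLip libraries lay below all others. The 2 genes are near-identical copies, and how reads were divided between them is uncertain. T cell, NK cell, platelet and progenitor marker lists had 0 genes called in any comparison by DESeq2 or edgeR. At an unadjusted p under 0.05, DESeq2 gave 1 T cell and 1 platelet gene in Van against Con and 2 platelet genes in VanLip against Con, and edgeR gave 1 T cell gene and 2 platelet genes in these comparisons. By DESeq2, of 6 neutrophil markers with an adjusted p, 1 was called lower in Van and 1 in VanLip than in Con. Of all genes, 2.06% and 3.46% were called lower in these comparisons. Of the 5 neutrophil markers that edgeR tested, 0 were called.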
